A study of Mus musculus with 40 samples.

Results

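The neurexins Nrxn2 and Nrxn3, the neuroligins Nlgn1, Nlgn2 and Nlgn3, the neurexophilin Nxph1 and the cerebellins Cbln1 and Cbln2 were followed through 40 RNA-seq libraries of mouse forebrain. The 8 genes were found by their symbols, each as 1 row among 41388 counted features, and all 8 passed the filter on low counts in every comparison. The libraries came from mice aged 21 d of 2 lines, RBP4-TRAP and VGAT-TRAP, in which a Cre driver switches on a reporter of the ribosomal protein Rpl10a fused to EGFP, so that ribosomes of the targeted cells carry a tag in both lines. The driver is Tg(RBP4-cre)KL100Gsat/Mmcd in the RBP4 line, which targets layer 5 pyramidal neurons of the cortex, and Cre at the Slc32a1 (VGAT) locus in the VGAT line, which targets GABAergic neurons of the forebrain as a whole. Each pool held 2 to 3 forebrains of both sexes, and 4 samples were made from it: RNA of the whole-cell homogenate (WCH), RNA on tagged ribosomes of that homogenate (TRAP), RNA of the synaptoneurosomal fraction (SNF), and RNA on tagged ribosomes of the SNF (SynapTRAP, ST). Each line had 5 pools, which gave 8 groups of 5 libraries and no group without the tag. The labels name the tissue as cortex, while the methods describe dissected forebrain.

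Neurexins are adhesion proteins of the presynaptic membrane and neuroligins are their partners on the postsynaptic side, where neuroligin 1 is known from excitatory synapses, neuroligin 2 from inhibitory synapses and neuroligin 3 from both. Neurexophilins are secreted proteins that bind the long α form of neurexins, and neurexophilin 1 is known from inhibitory interneurons. Cerebellins are secreted too, and bridge neurexins to the glutamate receptor family members GluD1 and GluD2. Cerebellin 1 is best known from granule cells of the cerebellum.

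Libraries held 14259535 to 22037703 counts, of which 8950847 to 21976631 remained without the genes for mitochondrial RNA, rRNA and tRNA. With these remaining counts scaled to a common library total (cpm), 1 count was worth 0.0455 to 0.112 cpm. The cpm levels given here were also divided by a scaling factor of each library (TMM). This factor ran from 0.772 in RBP4 SNF replicate 2 to 1.27 in RBP4 WCH replicate 1. Mitochondrial genes took a median of 5.66% of counts in WCH, 0.234% in TRAP, 17.2% in SNF and 4.26% in ST. The GABAergic marker Slc32a1 was at 1.56 to 4.67 cpm in RBP4 TRAP and at 47.5 to 76.3 cpm in VGAT TRAP, and the layer 5 marker Fezf2 at 74.4 to 167 and 4.14 to 17.9 cpm. In ST the groups were closer, and the library labelled RBP4 ST replicate 4 went against its label for Slc32a1, with 54.3 cpm above the 25.9 to 48.2 of VGAT ST and the 13.5 to 22.4 of its own group. Its other markers lay with its label: the 6 GABAergic markers summed to 720.3 cpm (626 to 1505 in RBP4 ST, 1219 to 4323 in VGAT ST) and the 4 layer 5 markers to 1124 cpm (741 to 1403 in RBP4 ST, 481 to 900.2 in VGAT ST). Markers of astrocytes, oligodendrocyte precursors, oligodendrocytes and microglia moved with the fractions. All 13 of them were higher in SNF than in WCH in both lines (median log2 fold change 1.39 to 2.15 by list), and all 13 were higher in ST than in TRAP (3.20 to 4.23). The 4 astrocyte markers, for one list, summed to 1966 to 4049 cpm in RBP4 WCH, 331 to 1386 in TRAP, 8849 to 28524 in SNF and 3720 to 24382 in ST. RBP4 pool 5 stood apart in its cerebellar markers, which are described with Cbln1. Its TRAP library stood apart in other markers too. There the oligodendrocyte markers summed to 4123 cpm (307 to 754 in the other RBP4 TRAP libraries) and the astrocyte markers to 1386 (331 to 621). The GABAergic markers summed to 668 cpm (317 to 403) and the layer 5 markers to 622 (877 to 1030). The part of other cells in the differences below was not tested, and in bulk RNA fewer cells of a type and less RNA per cell cannot be told apart.

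The genes lie at different sites (coordinates as in the deposited files, which name no build, equal in start or end to GENCODE M21 on GRCm38 for 87.8% of the features shared with it). Nrxn2 is on chromosome 19 (6418731 to 6544169, + strand), Nrxn3 on chromosome 12 (88722876 to 90334935, +), Nlgn1 on chromosome 3 (25431811 to 26133734, -), Nlgn2 on chromosome 11 (69823122 to 69837784, -), Nlgn3 on chromosome X (101299168 to 101325963, +), Nxph1 on chromosome 6 (8948431 to 9249032, +), Cbln1 on chromosome 8 (87468854 to 87472592, -) and Cbln2 on chromosome 18 (86711110 to 86718283, +). Counts cover exons only, and an exon base annotated to 2 genes gives no count to either. Of the exon bases of Nlgn3, 41.2% are shared with Gm21986 on the same strand, so that its level per length is uncertain, while its differences between groups compare the same bases. Of the exon bases of Nrxn2, 7.28% are shared with 3 features on the opposite strand, and the other 6 genes share none. The rows of Nlgn1 and Cbln1 matched that annotation at neither end.

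Per kb of counted exon, Nrxn3 had the highest level of the 8 genes in the homogenate and Nrxn2 the lowest. Reads of these libraries are biased to the 3´ end, so that dividing by length can understate long genes, and Nrxn2 has 13812 counted bases. In cpm without length Cbln1 was lowest, at 11.4 in RBP4 WCH beside 24.4 for Nrxn2. The counted exons of Nlgn1 come to 4359 bases, fewer than its longest annotated 3´ UTR, so that its level per length is uncertain as well. In RBP4 WCH, levels were 35.3 ± 4.33 cpm per kb for Nrxn3 and 1.77 ± 0.360 cpm per kb for Nrxn2 (mean ± SD, n = 5 here and below, 1 value per pool). The p-values rest on the spread between libraries within groups, estimated together over all groups of a fit. They leave out that the fractions of a line share pools. Nlgn1 (24.0 ± 1.67), Nlgn3 (20.7 ± 5.63) and Cbln2 (20.7 ± 3.84) came next in level per kb. The mean of Nlgn1 lay within the SD of Nlgn3 and of Cbln2, while their means lay outside the smaller SD of Nlgn1. Nxph1 (9.72 ± 1.19), Nlgn2 (6.41 ± 1.07) and Cbln1 (4.90 ± 2.63) were lower. VGAT WCH had the same order for the neurexins, with 34.1 ± 2.89 cpm per kb for Nrxn3 and 1.54 ± 0.109 for Nrxn2.

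**Figure D1:**
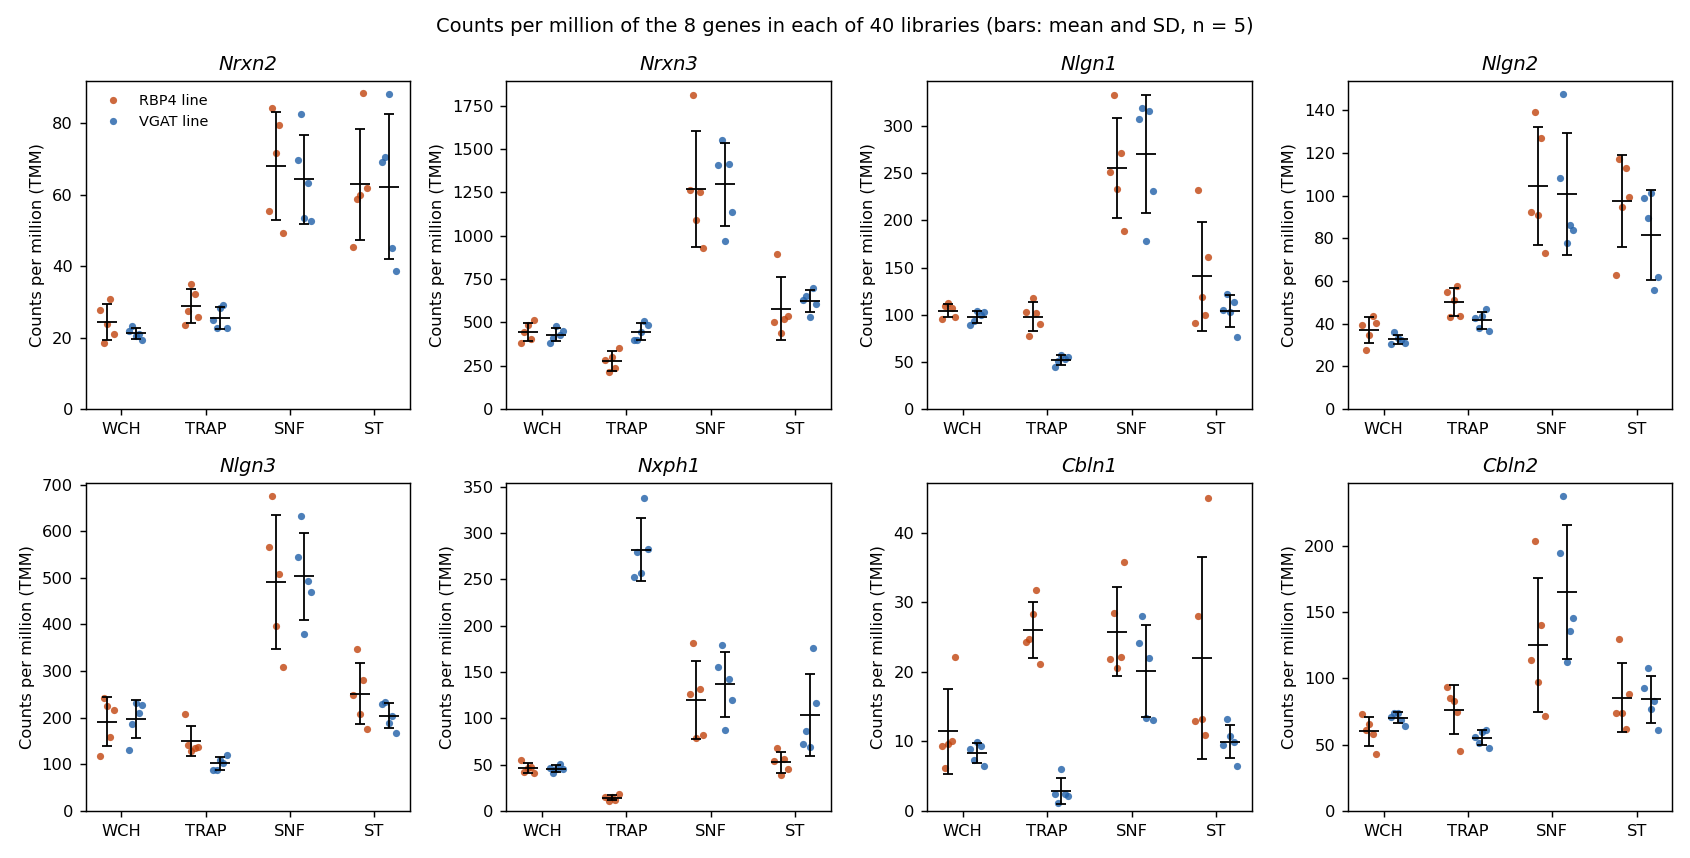
Level in cpm (TMM-scaled) of the 8 genes by fraction, with 1 point per library, RBP4 line in red and VGAT line in blue, and bars for mean and SD (n = 5). In the RBP4 line the mean is highest in SNF for every gene except Cbln1, and Nxph1 reaches 252 to 338 cpm in VGAT TRAP against 10.8 to 18.0 cpm in RBP4 TRAP.

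The comparison of SNF with WCH asked which RNAs were relatively more abundant in synaptoneurosomes. In both lines SNF exceeded WCH for all 8 genes, presynaptic neurexins, postsynaptic neuroligins and secreted ligands alike. Nrxn3 had 382, 442, 485, 404 and 513 cpm in the WCH libraries of RBP4 pools 1 to 5, and 1266, 1812, 1091, 1253 and 927 cpm in SNF. Every SNF library was thus above every WCH library. Its log2 fold change was 1.39 ± 0.20 (SE, adjusted p = 3.99e-05) in the RBP4 line, against 1.52 ± 0.13 (7.35e-09) in the VGAT line. Nrxn2 rose by much the same amount from a far lower level, by 1.36 ± 0.20 and 1.53 ± 0.18. Among the neuroligins, Nlgn2 rose by 1.38 ± 0.19 and 1.56 ± 0.17, Nlgn1 by 1.17 ± 0.21 and 1.39 ± 0.14, and Nlgn3 by 1.24 ± 0.23 and 1.29 ± 0.15. Nxph1 rose by 1.25 ± 0.20 and 1.51 ± 0.21. The cerebellins had the smallest rises, 0.94 ± 0.24 and 1.16 ± 0.16 for Cbln2 and 1.07 ± 0.34 and 1.19 ± 0.29 for Cbln1. Their intervals overlapped those of the other genes.

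Beside these 8 of 8, 19.3% of the 17043 genes tested were higher and 17.9% lower in SNF than in WCH in the RBP4 line, and 24.6% and 27.9% of 16990 in the VGAT line, with a median log2 fold change over all genes of -0.17 in each line. The groups did not overlap for 6 of the 8 genes in the RBP4 line, where 17.5% of all genes had every SNF library above every WCH library, and for 8 of 8 in the VGAT line, where 21.6% had. With library sizes alone in place of TMM factors, Cbln1 in the RBP4 line was no longer past the threshold (0.75, adjusted p = 0.088). It was also lost without RBP4 replicate 1 (1.08, 0.057) or 2 (0.93, 0.085).

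The partners of the 8 genes were taken as 4 lists. Of 20 genes of the neurexin ligand and receptor list, 19 were higher in SNF in each line and none lower, with medians of 1.16 and 1.31. The smallest p-values were those of Adgrl1 (1.55 ± 0.20), a latrophilin, Dag1 (1.54 ± 0.21), dystroglycan, and Grid1 (1.59 ± 0.22), the cerebellin receptor GluD1, in the RBP4 line. Of 14 genes of the receptor phosphatase system, another set of synaptic adhesion proteins, 13 and 14 were higher and none lower (medians 1.05 and 1.28), led by the phosphatase gene Ptprf in both lines (1.54 ± 0.19 and 1.60 ± 0.17). Of 6 neuroligin partners, 3 were higher in each line (Mdga1, Mdga2 and Lhfpl4), and Magi1 was lower in the VGAT line (-0.82 ± 0.20). The 6 genes of the list of intracellular neurexin adaptors had none higher. Lin7a (-0.75 ± 0.18) and Apba2 (-0.61 ± 0.18) were lower in the RBP4 line. Lin7a (-0.88 ± 0.17), Apba2 (-0.70 ± 0.17) and Lin7b (-0.35 ± 0.12) were lower in the VGAT line.

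**Figure D2:**
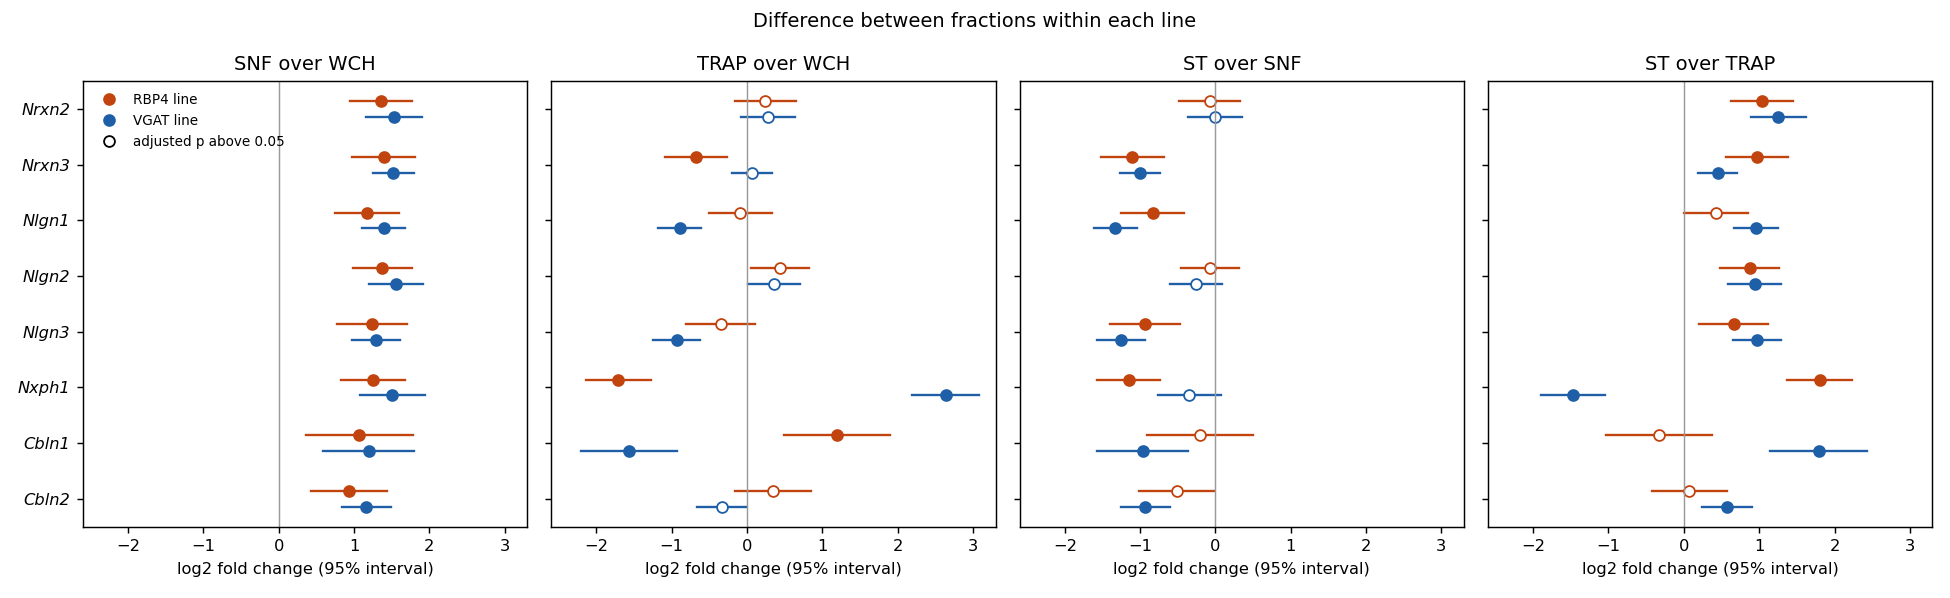
Log2 fold change with 95% interval of the 8 genes between fractions, RBP4 line in red and VGAT line in blue, with filled points for an adjusted p of at most 0.05. All 16 points for SNF over WCH lie right of 0, and Nxph1 and Cbln1 lie on opposite sides of 0 in the 2 lines for TRAP over WCH.

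TRAP against WCH asked which RNAs were on ribosomes of the targeted neurons more than in the homogenate. The lines gave opposite results for Nxph1 and for Cbln1. Nxph1 had 54.7, 41.5, 46.1, 47.9 and 40.7 cpm in RBP4 WCH and 14.8, 10.8, 15.4, 11.8 and 18.0 cpm in RBP4 TRAP. In the VGAT line it had 46.6, 40.8, 45.6, 50.6 and 44.9 cpm in WCH and 252, 279.8, 257, 338 and 283 cpm in TRAP. The WCH and TRAP libraries did not overlap in either line. Nxph1 thus fell by 1.71 ± 0.21 (adjusted p = 6.29e-06) in RBP4 TRAP and rose by 2.64 ± 0.22 (4.47e-09), or 6.21-fold, in VGAT TRAP. The summed GABAergic markers (Slc32a1, Gad1, Gad2, Dlx1, Sst and Npy) moved the same way, with 317 to 668 cpm in RBP4 TRAP and 8798 to 11416 cpm in VGAT TRAP against 909 to 1403 cpm in WCH.

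Cbln1 moved the other way. It had 9.37, 6.17, 9.56, 10.05 and 22.1 cpm in RBP4 WCH and 24.3, 24.7, 28.3, 31.7 and 21.1 cpm in RBP4 TRAP, where the groups overlapped through pool 5 alone. In VGAT WCH it had 8.90, 7.29, 9.95, 9.29 and 6.47 cpm, and in VGAT TRAP 2.44, 1.08, 6.04, 2.40 and 2.09 cpm, with no overlap. The log2 fold change was 1.19 ± 0.34 (adjusted p = 0.00855) in the RBP4 line, against -1.57 ± 0.31 (0.000175) in the VGAT line. With library sizes alone the RBP4 value was 0.90 (adjusted p = 0.051).

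Among the postsynaptic neuroligins, Nlgn1 and Nlgn3 fell from WCH to TRAP in the VGAT line, with -0.89 ± 0.14 (adjusted p = 1.14e-05) and -0.94 ± 0.15 (2.05e-05), with values of -0.09 ± 0.20 and -0.35 ± 0.22 in the RBP4 line that did not pass. The RBP4 value of Nlgn3 passed without RBP4 replicate 1 (-0.62, 0.049) and with library sizes alone (-0.64, 0.024). Nlgn2 had 0.44 ± 0.19 (0.064) and 0.36 ± 0.17 (0.069). Its VGAT value was past the threshold with the pool as a block (0.36, 0.044) and with no genes left out (0.38, 0.038). Its RBP4 value was past it with no genes left out (0.48, 0.042) and with the filter of 1 cpm in 5 libraries (0.45, 0.049). Of the presynaptic genes, Nrxn3 fell in RBP4 TRAP by 0.68 ± 0.20 (0.00975) and had 0.07 ± 0.13 in the VGAT line, while Nrxn2 had 0.24 ± 0.19 and 0.28 ± 0.18. Cbln2 had 0.35 ± 0.24 and -0.34 ± 0.16 (0.069), the latter past the threshold with the pool as a block (-0.33, 0.038), with library sizes alone (-0.59, 0.0022), with DESeq2 (-0.36, 0.048) and with the filter of 1 cpm in 5 libraries (-0.36, 0.044). In all 1 gene was higher and 2 lower of the 8 in the RBP4 line, beside 19.3% and 22.4% of all genes, and 1 higher and 3 lower in the VGAT line, beside 29.4% and 32.5%.

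Partners were called in both directions. In the RBP4 line, 3 of the 20 neurexin ligands and receptors were higher, among them the C1q-like ligands C1ql2 (2.84 ± 0.41) and C1ql3 (1.18 ± 0.25), and 5 were lower. In the VGAT line 3 were higher, Nxph2 (1.83 ± 0.30), Cbln4 (0.72 ± 0.20) and Clstn3 (0.78 ± 0.23), and 11 were lower, among them the latrophilin gene Adgrl2 (-1.29 ± 0.16). Of the neuroligin partners 4 and 5 of 6 were lower, and of the phosphatase system 2 were higher and 4 lower of 14 in the RBP4 line, against 8 lower in the VGAT line. Among the adaptors, Lin7b was higher in both lines (1.69 ± 0.21 and 0.65 ± 0.12).

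Comparing TRAP between the lines, layer 5 against GABAergic neurons, Nxph1 and Cbln1 were furthest apart, and only Nrxn2 and Nlgn2 of the 8 genes did not pass. The paper states that the dissection likely took in some dorsal striatum. The 4 markers of striatal projection neurons summed to 919 to 1828 cpm in VGAT TRAP and 56.3 to 107 cpm in RBP4 TRAP. All 4 were lower in RBP4 TRAP (median log2 -4.26). The part of striatal neurons in the values of VGAT TRAP was not tested. Nxph1 was 19.2-fold lower in RBP4 TRAP (log2 -4.27 ± 0.22, adjusted p = 3.18e-15). Nrxn3 was lower as well (-0.64 ± 0.16, 0.00200), from 212 to 355 cpm in RBP4 TRAP against 396 to 508 cpm in VGAT TRAP, with no overlap. Cbln1 was 9.56-fold higher in RBP4 TRAP (3.26 ± 0.39, 9.15e-08). Nlgn1 was 1.94-fold higher (0.96 ± 0.17, 6.26e-05), with 77.2 to 118 cpm against 44.5 to 57.6. Nlgn3 was 1.52-fold higher (0.61 ± 0.19, 0.0137), a call that was lost without RBP4 replicate 1 (0.46, 0.051) or VGAT replicate 2 (0.55, 0.056). Cbln2 was 1.43-fold higher (0.52 ± 0.18, 0.0298), and this was lost under 9 alternatives, which included leaving out RBP4 replicate 1 or 3 or VGAT replicate 1, 2, 4 or 5 (0.43 to 0.55, adjusted p = 0.054 to 0.093). Nrxn2 (0.23 ± 0.19, 95% interval -0.16 to 0.61) and Nlgn2 (0.32 ± 0.16, -0.01 to 0.65) did not pass, and their intervals leave differences up to these bounds. Of all 16898 genes tested, 14.9% were higher and 13.1% lower in RBP4 TRAP, beside 4 and 2 of the 8.

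The other ligands and receptors gave 7 higher and 3 lower of 20 in RBP4 TRAP. C1ql2 (3.68 ± 0.37) and C1ql3 (2.56 ± 0.27) led the first group, and Nxph2 (-3.16 ± 0.34), Cbln4 (-1.58 ± 0.28) and C1ql1 (-1.92 ± 0.55) were the second. The secreted neurexin ligands therefore included genes of either sign, Cbln1, Cbln2, C1ql2 and C1ql3 higher in RBP4 TRAP and Nxph1, Nxph2, Cbln4 and C1ql1 higher in VGAT TRAP. Of the 6 adaptors 5 were higher in RBP4 TRAP and none lower (median 0.67 beside 0.04 over all genes).

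The untagged fractions showed no member past the threshold between the lines. In WCH, values ran from -0.21 ± 0.18 (Cbln2) to 0.46 ± 0.35 (Cbln1), where 1 gene of all was higher and 1 lower (0.00592% each). In SNF they ran from -0.40 ± 0.21 (Cbln2) to 0.38 ± 0.33 (Cbln1), where 0.0118% of genes were higher and 0.0118% lower. By edgeR's quasi-likelihood test, 458 of 16898 genes in WCH and 755 in SNF had an unadjusted p under 0.05. Both are smaller shares than the 0.05 that would pass if no gene differed.

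**Figure D3:**
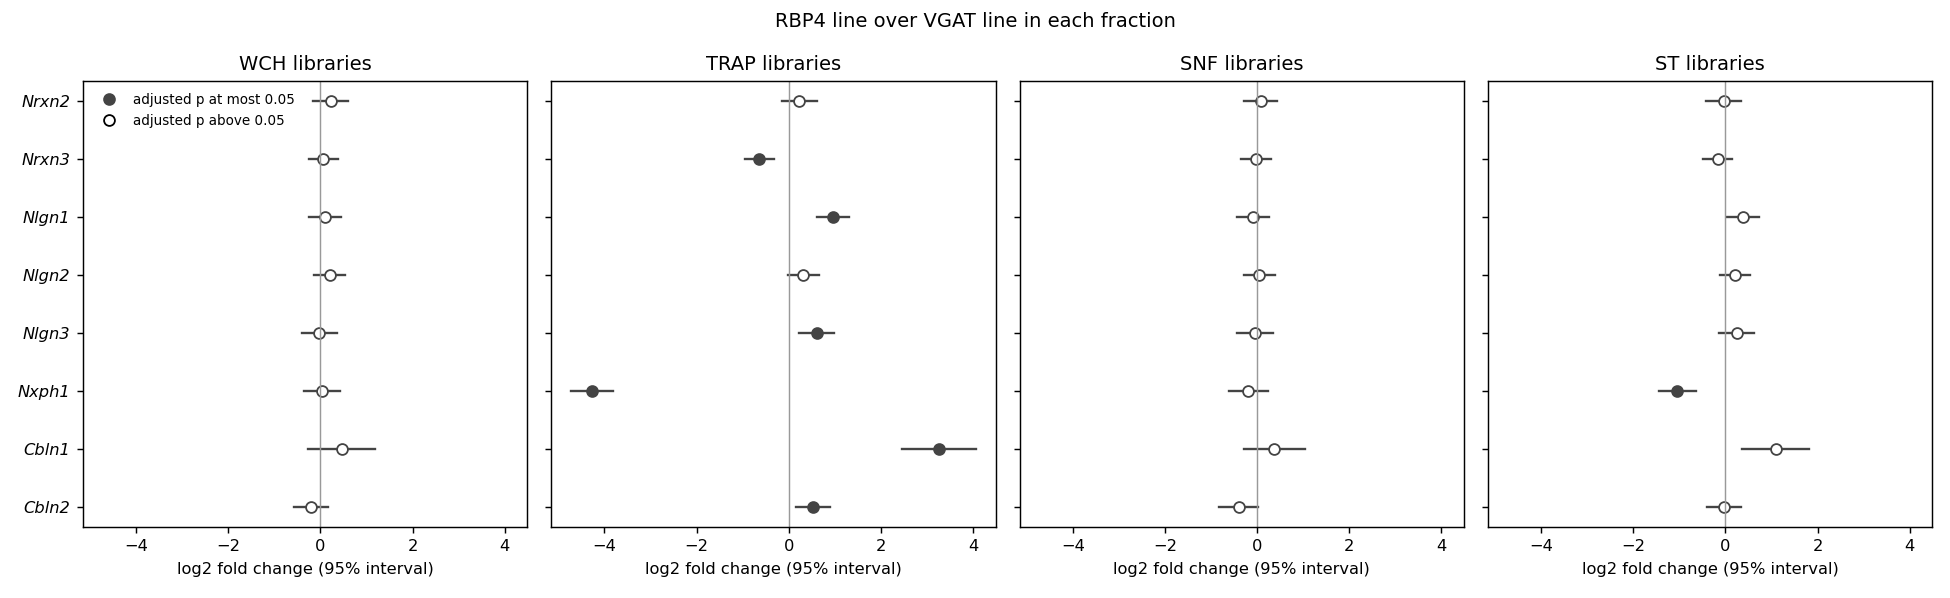
Log2 fold change with 95% interval of RBP4 over VGAT for the 8 genes in each fraction, with filled points for an adjusted p of at most 0.05. The range runs from -4.27 to 3.26 in TRAP and from -1.05 to 1.09 in ST.

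In ST the difference between the lines was past the threshold for Nxph1 alone, and was far smaller than in TRAP. Nxph1 had 54.0, 68.3, 38.9, 56.5 and 45.5 cpm in RBP4 ST and 71.9, 86.6, 69.1, 176 and 116 cpm in VGAT ST, without overlap but with the closest libraries at 68.3 and 69.1 cpm. The log2 fold change was -1.05 ± 0.19 (adjusted p = 0.00746), or 2.07-fold lower in RBP4 ST. It was -1.07 (0.0135) without the library labelled RBP4 ST replicate 4. The call was lost without RBP4 replicate 3 (-0.97, 0.052), VGAT replicate 4 (-0.76, 0.074) or VGAT replicate 5 (-0.96, 0.067). VGAT replicates 4 and 5 were also the 2 VGAT ST libraries with the highest sums of GABAergic markers, at 3828 and 4323 cpm against 1219 to 2568 in the other 3 and 626 to 1505 in RBP4 ST. Only 0.0888% of all genes were higher and 0.213% lower in RBP4 ST, 51 genes in all. Cbln1 had 1.09 ± 0.36 (adjusted p = 0.233), Nlgn1 0.38 ± 0.17 (0.407), and the other 5 genes lay between -0.17 and 0.24.

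Whether the line difference itself changed between ST and TRAP was tested as an interaction. It was past the threshold for Nxph1 (3.22 ± 0.28, adjusted p = 1.87e-09) and Cbln1 (-2.16 ± 0.51, 0.00424), in both cases toward a smaller difference in ST. Beside these, 5.48% of all genes had a higher and 5.43% a lower value. All 6 GABAergic markers were among the higher (median 3.67), and of the 4 layer 5 markers 3 were among the lower and 1, Bcl11b (0.88 ± 0.23), among the higher. Nlgn1 also passed this test without RBP4 replicate 2 (-0.89, adjusted p = 0.0044, against -0.58 with all pools), and Cbln2 without RBP4 replicate 5 (-0.70, 0.041, against -0.55). Among the neurexin ligands and receptors Nxph2 (2.33 ± 0.46) and Cbln4 (1.39 ± 0.39) were higher and C1ql3 (-2.19 ± 0.36) and C1ql2 (-2.53 ± 0.48) lower. Within the VGAT line Nxph1 was the 1 gene of the 8 that was lower in ST than in TRAP (-1.47 ± 0.21, 1.48e-06), while the other 7 were higher, from 0.45 ± 0.13 for Nrxn3 to 1.79 ± 0.31 for Cbln1. Within the RBP4 line 5 genes were higher in ST than in TRAP, led by Nxph1 (1.81 ± 0.21, 5.11e-07) and followed by Nrxn2 (1.04 ± 0.20), Nrxn3 (0.97 ± 0.20), Nlgn2 (0.87 ± 0.19) and Nlgn3 (0.66 ± 0.22), and none was lower. The Nlgn3 call was lost without RBP4 replicate 2 (0.53, adjusted p = 0.081) or 4 (0.58, 0.085). Of all genes, 28.6% were higher and 26.5% lower in ST than in TRAP in the RBP4 line, and 37.5% and 34.3% in the VGAT line.

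The TRAP effect also differed between the lines when WCH was taken as the base. For 4 genes the difference was past the threshold: Nxph1 (-4.30 ± 0.29, adjusted p = 4.13e-12), Cbln1 (2.80 ± 0.52, 0.000209), Nlgn1 (0.85 ± 0.24, 0.0147) and Nrxn3 (-0.70 ± 0.22, 0.0286). Beside them, 6.63% of all genes were higher and 6.17% lower. Without VGAT replicate 1, 2 genes were left, with Nlgn1 at 0.81 (0.054) and Nrxn3 at -0.72 (0.059). Nrxn3 was lost as well without RBP4 replicate 4 (-0.69) or VGAT replicate 2 (-0.72), 4 (-0.67) or 5 (-0.71), at adjusted p of 0.060 to 0.085. Cbln2 had 0.73 ± 0.25 (0.057) and passed with the pool as a block (0.72, 0.036).

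ST against SNF asked which RNAs of the synaptoneurosomes were on tagged ribosomes. Of 4 layer 5 markers, 1 was higher in RBP4 ST, and of 6 GABAergic markers none was higher in VGAT ST. None of these was lower. The 3 oligodendrocyte markers summed to a median of 17673 cpm in RBP4 SNF and 31565 in RBP4 ST. In the VGAT line the sums were 15632 and 35670 cpm. Of these 3 genes, 1 was called higher in each line and 1 lower in the VGAT line. The median log2 fold change of these 3 genes was -0.11 (RBP4) and -0.74 (VGAT), so the sums rose while the medians were negative. Whether a fall from SNF to ST reflects absence from tagged ribosomes was not tested. No gene of the 8 was higher in ST than in SNF in either line, and the neuroligins and neurexins were not alike among themselves. Nrxn3 fell in both lines, from 927 to 1812 cpm in RBP4 SNF to 438 to 896 cpm in RBP4 ST (-1.10 ± 0.20, adjusted p = 0.000889) and from 967 to 1554 cpm in VGAT SNF to 531 to 702 cpm in VGAT ST (-1.01 ± 0.13, 3.62e-06). The groups did not overlap in either line. Nrxn2 stayed at about the same level, with 49.2 to 84.2 cpm in RBP4 SNF and 45.5 to 88.3 cpm in RBP4 ST (-0.08 ± 0.19, interval -0.48 to 0.32) and -0.00086 ± 0.17 (-0.36 to 0.36) in the VGAT line. Nlgn1 fell by 0.83 ± 0.20 (0.00948) and 1.33 ± 0.14 (3.98e-07), and Nlgn3 by 0.93 ± 0.22 (0.00842) and 1.26 ± 0.15 (2.32e-06). The RBP4 value of Nlgn1 was lost without RBP4 replicate 1 (-0.73, 0.080) or 4 (-0.71, 0.090). Nlgn2, the neuroligin of inhibitory synapses, had -0.07 ± 0.19 (interval -0.45 to 0.32) and -0.26 ± 0.17 (-0.61 to 0.09).

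Among the ligands, Nxph1 fell in the RBP4 line (-1.15 ± 0.20, 0.000648) and had -0.35 ± 0.20 (0.228) in the VGAT line, where it passed without VGAT replicate 4 (-0.62, 0.027). Cbln2 fell in the VGAT line (-0.93 ± 0.16, 0.000114) and had -0.52 ± 0.24 (0.171) in the RBP4 line. Cbln1 fell in the VGAT line (-0.97 ± 0.29, 0.0157), which was lost without VGAT replicate 1 (-0.88, 0.096) or 4 (-0.95, 0.067), and had -0.20 ± 0.34 in the RBP4 line. That made 4 genes lower in the RBP4 line, beside 5.22% lower and 6.91% higher of all genes, and 5 lower in the VGAT line, beside 14.6% lower and 11.7% higher. The difference between the lines in this effect did not pass for any of the 8 or of all genes (0% higher and 0% lower by edgeR's quasi-likelihood test). An unadjusted p under 0.05 was found for 470 genes, again a smaller share than 0.05. The largest difference among the 8 was that of Nxph1 (-0.85 ± 0.30, unadjusted p = 0.00683).

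The partner lists differed in their counts. Of the 20 neurexin ligands and receptors, 10 were lower in ST than in SNF in the RBP4 line, against 15 in the VGAT line, none higher, with medians of -0.70 and -0.82 beside -0.01 and -0.02 over all genes. Lrrtm2 (-1.21 ± 0.28 and -1.61 ± 0.15), a postsynaptic neurexin receptor, was among them. The phosphatase system had 8 and 11 of 14 lower, and the neuroligin partners 1 and 2 of 6. Of the adaptors Apba1 (1.22 ± 0.18 and 1.28 ± 0.14) and Apba2 (0.59 ± 0.18 and 0.51 ± 0.17), both of the Mint family, were higher in both lines.

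Candidates for local translation were defined as genes with an unadjusted p under 0.05 for being higher in ST than in SNF and for being higher in SNF than in WCH, and somatic candidates as genes that TRAP raised over WCH and that were lower in SNF. None of the 8 genes met either rule in either line. Of all genes, 208 (1.22%) and 401 (2.36%) were local candidates in the RBP4 and VGAT lines, and 1244 (7.3%) and 2070 (12.2%) somatic candidates. With adjusted p-values in both tests the 8 genes were still 0, of 100 and 262 local and 748 and 1748 somatic candidates.

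Cbln1 stood beside cerebellar markers in RBP4 pool 5. Gabra6, a receptor subunit of granule cells, Pcp2, a Purkinje cell gene, and Zic1 summed to 69.1 cpm in WCH, 115 in TRAP, 65.1 in SNF and 112 in ST of that pool, against 0.830 to 9.28 cpm in the other 16 RBP4 libraries and 5.52 to 24.4 cpm in the 20 VGAT libraries. Gabra6 was at 10.9 to 22.8 cpm in pool 5 and at most 1.79 cpm in every other library. In TRAP of pool 5, Pcp2 was at 97.8 cpm and Gabra6 at 10.9, against 22.6 and 22.8 cpm in WCH. Cbln1 was highest of its group in pool 5 in WCH (22.1 cpm), SNF (35.8 cpm) and ST (45.0 cpm) and lowest in TRAP (21.1 cpm). Without pool 5 the difference of TRAP over WCH in the RBP4 line was larger (1.62, adjusted p = 4.17e-05), that of ST over TRAP passed the threshold (-0.84, 0.00533), and that of TRAP between the lines was 3.33 (2.82e-09). The interaction was -2.67 (6.11e-05), and the line difference in ST 0.66 (0.490). The TRAP library of that pool also stood apart in glial, GABAergic and layer 5 markers. Leaving the pool out therefore cannot single out cerebellar tissue, whose part in these values was not tested further.

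**Figure D4:**
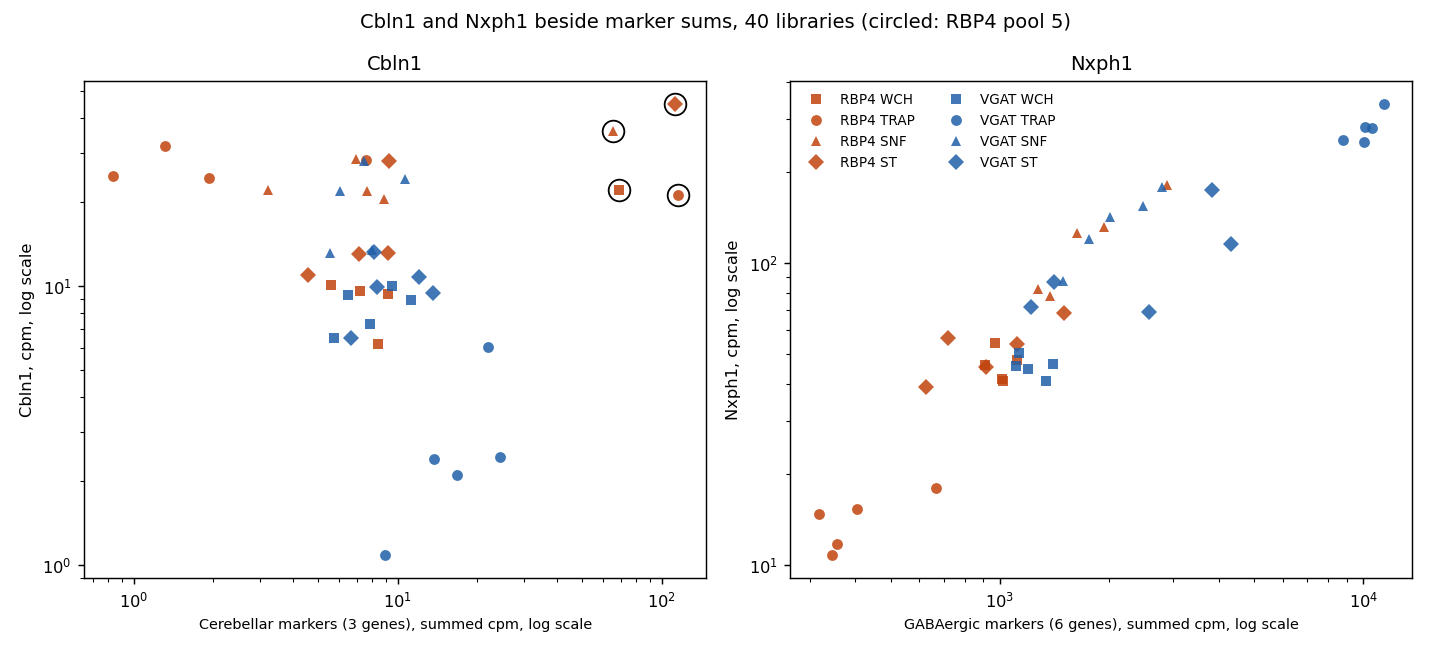
Cbln1 against the sum of 3 cerebellar markers, and Nxph1 against the sum of 6 GABAergic markers, in 40 libraries, all in cpm on log axes, with color for the line and shape for the fraction. The 4 circled libraries of RBP4 pool 5 have cerebellar sums of 65.1 to 115 cpm, and the 5 VGAT TRAP libraries lie at the upper right for Nxph1.

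Across the 40 libraries the genes fell into unlike patterns. These correlations of log2(cpm + 1) are descriptions over libraries that share lines, fractions and pools. Nrxn2 and Nlgn2 followed each other most closely (Pearson r = 0.966, Spearman 0.953), and by Pearson r each was among the 3 genes most like the other out of 10789. Nlgn1 and Nlgn3 had r = 0.926 (Spearman 0.834), and Nrxn3 had 0.815 with Nlgn1 and 0.860 with Nlgn3. Nrxn2 and Nrxn3 had 0.696. Nxph1 had 0.596 with Nrxn3 and 0.0675 to 0.264 with Nrxn2, Cbln2 and the neuroligins, and -0.472 with Cbln1.

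Genes were named by rule from the 3 most like each member by Pearson r. For Nxph1 they were Vip (0.975), which encodes an interneuron neuropeptide, Gpr176 (0.973) and Crhbp (0.973), a binding protein of corticotropin-releasing hormone. For Cbln1 they were Tmem159 (0.929), Chst8 (0.918) and Vegfd (0.908), and for Cbln2 Vopp1 (0.941), Slit2 (0.914) and Stt3b (0.912). For Nrxn2 they were Ttyh3 (0.967), Nlgn2 and Adgrb1 (0.963), and for Nlgn2 Nrxn2, Susd4 (0.964) and Lrrn2 (0.961). Nrxn3 was followed by Sema3a (0.965), a secreted semaphorin, Kcnd2 (0.964), a potassium channel subunit, and Thsd7a (0.963). Nlgn1 was followed by Kcnq5 (0.972), a potassium channel subunit, and Cntn1 (0.972), a cell adhesion protein, and Nlgn3 by Lclat1 (0.971), Astn1 (0.968) and Cntn1 (0.967). By Spearman correlation another gene led for all 8 members, as Crhbp (0.972) for Nxph1 and Nlgn2 (0.953) for Nrxn2.

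The transcripts themselves differed in length and composition. The longest annotated 3´ UTR was 7423 bases in Nlgn1, more than its counted exons hold, and 5701 bases in Nlgn3, longer than in 98.8% and 97.0% of 15014 protein-coding genes tested with such an annotation (median 1332 bases). In the other 6 it was between 1186 bases (Nxph1) and 2525 bases (Nrxn3). The GC content of these UTRs was 54.4% in Nlgn2 and 54.2% in Nrxn2, above 88.5% and 87.9% of genes. It was 33.2% in Nlgn1 and 36.2% in Nrxn3, above 4.66% and 11.8%, with 37.7% in Nxph1, 42.3% in Cbln2, 46.0% in Nlgn3 and 51.7% in Cbln1. Nrxn2 and Nlgn2, with the highest GC, were the 2 genes with no fall past the threshold from SNF to ST in either line. Cbln1, next in GC, fell past the threshold in the VGAT line alone, a call lost without VGAT replicate 1 or 4. Of the genes with lower GC, Nlgn3, Nrxn3 and Nlgn1 fell in both lines, Cbln2 in the VGAT line alone and Nxph1 in the RBP4 line alone. Whether GC content bears on the change from SNF to ST was not tested.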

How the data were processed

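RNA was measured in 40 libraries by single reads of the SMARTer Ultra Low kit, which does not keep strand. The authors aligned reads with STAR (2.0.4b, per the submitters' processing notes) and counted uniquely assigned reads per gene with featureCounts (1.4.5). The deposited files hold these raw counts, which were used here. The deposited CPM and RPKM columns, made by the authors from the counts and the exon length, were recomputed from them as a check and not tested. Samples were grouped by the labels, and replicate number marks the pool. Mitochondrial, rRNA and tRNA genes (390) were left out. Within a line a gene was kept where 3 libraries or more reached 0.5 cpm, and between lines where 3 TRAP or ST libraries or more did. Counts were tested with edgeR (4.0.16, R 4.3.3), TMM factors and the quasi-likelihood test on group alone: 20 libraries within a line, 30 between lines and 40 where SNF entered. P-values were adjusted by Benjamini-Hochberg over all genes tested, with a threshold of 0.05. TMM factors were used since library sizes alone moved the median of all genes. DESeq2 (1.42.0) served as an alternative, and the scripts were tested on simulated data. The text names all 8 genes, up to 3 called genes per direction with the smallest p in each partner list, and the 3 most correlated genes, except items that are not reported here. Members, lists and rules were chosen with earlier results of these data known. Depth of 14259535 to 22037703 counts sets the value of 1 count before TMM factors. The 4 fractions of a pool were collected in parallel, so the pool pairs libraries within a line by the methods; correlations of deviations of same-numbered libraries ranged from -0.192 to 0.666 there. Intervals rest on the spread between libraries within groups, estimated over all groups of a fit, without the pairing by pool. No sequences were printed, since counts are per gene.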

Additional observations from a re-analysis of the deposited data

Results flagged for a closer look

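In 4 of the 64 groups of 5 libraries, 1 library lay far from the other 4 by Dixon's ratio, and chance gives about 1 in 20. Nrxn3 was at 896 cpm in RBP4 ST replicate 2, against 438 to 538 in the others. Nlgn3 was at 208 cpm in RBP4 TRAP replicate 1, against 128 to 141. Cbln1 was at 22.1 cpm in RBP4 WCH replicate 5, against 6.17 to 10.05, in the pool with cerebellar marker sums of 65.1 to 115 cpm. Cbln1 was also at 6.04 cpm in VGAT TRAP replicate 3, against 1.08 to 2.44. In that library the layer 5 marker Fezf2 was at 17.9 cpm, against 4.14 to 5.83 in the other VGAT TRAP libraries. It was also highest of its group in the sums of astrocyte (919 cpm, others 144 to 516) and oligodendrocyte markers (1893, 309 to 1410). The same held for oligodendrocyte precursors (27.6, 6.14 to 18.7) and microglia (45.9, 11.6 to 34.1). Of the cerebellar genes, Pcp2 was highest there (15.5, 0.660 to 5.95) and Zic1 lowest (6.16, 7.52 to 19.1). The part of these markers in the values was not tested.

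The effect of a fraction differed between the lines for 6 values, each by the test of the difference in edgeR. The change from TRAP to ST differed for Nxph1 (3.22, adjusted p = 1.87e-09) and Cbln1 (-2.16, 0.00424). The change from WCH to TRAP differed for Nxph1 (-4.30, 4.13e-12), Cbln1 (2.80, 0.000209), Nlgn1 (0.85, 0.0147) and Nrxn3 (-0.70, 0.0286), of which the last 2 were lost without VGAT replicate 1.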

How the results depend on the processing

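Of 120 values (8 genes in 15 comparisons), 58 passed the threshold. Of these, 48 passed with the same sign under every alternative that was run for them, 10 were lost under at least 1, and none changed sign. The cause of a lost call was not tested.

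With library sizes alone the median log2 fold change over all genes fell from -0.05 to -0.34 (RBP4) and from -0.06 to -0.31 (VGAT) for TRAP over WCH, and from -0.17 to -0.50 and -0.52 for SNF over WCH. The genes called higher and lower went from 3296 and 3815 to 1427 and 5372 (TRAP over WCH, RBP4), from 4987 and 5530 to 3561 and 7106 (VGAT), from 3284 and 3048 to 2286 and 6161 (SNF over WCH, RBP4), from 4187 and 4747 to 3283 and 7680 (VGAT), from 1987 and 2480 to 2771 and 1905 (ST over SNF, VGAT), and from 15 and 36 to 10 and 45 (ST between lines).

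Values that changed sign had not passed the threshold. With library sizes alone they were Nrxn2 (-0.051) for TRAP over WCH and Cbln2 (-0.0079) for ST over TRAP in the RBP4 line, Nrxn3 (-0.19) for TRAP over WCH and Nrxn2 (0.079) for ST over SNF in the VGAT line, and Nrxn2 (-0.078) for the line difference in TRAP less WCH. That last value was -0.034 with DESeq2 size factors and with DESeq2, -0.0093 with no filter and -0.025 with all 40 libraries. Cbln2 in ST between lines was 0.00052 with DESeq2 size factors, 0.00051 with DESeq2, 0.023 with all 40 libraries and 0.067 without the library labelled RBP4 ST replicate 4, and Nrxn2 was 0.015 with all 40. Nrxn2 for ST over SNF in the VGAT line was 0.055 with no genes left out and 0.0015 with the filter of 1 cpm in 5 libraries.

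Leaving out 1 pool at a time gave ranges that crossed 0. In the RBP4 line they were -0.084 to 0.20 (Cbln2, ST over TRAP), -0.13 to 0.057 (Nlgn1, TRAP over WCH), -0.18 to 0.024 (Nlgn2, ST over SNF) and -0.23 to 0.077 (Nrxn2, ST over SNF). In the VGAT line they were -0.21 to 0.072 (Nrxn2, ST over SNF) and -0.0027 to 0.097 (Nrxn3, TRAP over WCH). Between lines they were -0.21 to 0.084 (Cbln2) and -0.18 to 0.14 (Nrxn2) in ST, -0.058 to 0.20 (Nlgn2), -0.16 to 0.060 (Nlgn3) and -0.18 to 0.033 (Nrxn3) in SNF, -0.14 to 0.10 (Nlgn3) and -0.046 to 0.080 (Nxph1) in WCH, -0.25 to 0.040 (Nlgn2) in the interaction, -0.27 to 0.11 (Nrxn2) in ST less SNF and -0.085 to 0.13 (Nrxn2) in TRAP less WCH. Among the counts of members called, that for ST between lines ranged from 0 to 1 and that for TRAP less WCH from 2 to 5.

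With the replicate block, the pool pairing within lines, Nlgn2 (0.36) and Cbln2 (-0.33) for TRAP over WCH in the VGAT line and Cbln2 (0.72) for TRAP less WCH passed as well, which made 6 and 5 members called. The block changed no other call.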
